A study of Caenorhabditis elegans with 12 samples.

Results

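The baseline transcriptome of wild-type (N2) Caenorhabditis elegans at day 1 of adulthood was described from 4 of the 12 RNA-Seq libraries of a study on the circular RNA of crh-1. The 4 libraries were chosen by their genotype and age labels alone, and the 8 libraries of the other genotypes enter no value given here. All 4 came from whole worms, raised at 20°C on E. coli OP50 after hypochlorite synchronization, re-plated at the L4 larval stage and collected at day 1 of adulthood. The methods describe independent biological replicates. They also describe FUdR, which blocks egg and embryo production, as used unless stated otherwise, while the labels name none, so its use in these 4 cultures is unknown. Replicates are called 1 to 4 as labelled. With 1 genotype and 1 age there is no group to compare with, so no test and no p-value is given, and the spread among the 4 replicates is described instead. In whole worms, fewer cells of a type and less RNA per cell cannot be told apart.

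An adult hermaphrodite of C. elegans keeps a fixed number of somatic cells beside a germline that goes on dividing, so whole-worm RNA is a blend of a reproductive and a somatic programme. In early adulthood the intestine makes yolk proteins (vitellogenins) that oocytes take up, and the gonad loads oocytes with maternal mRNA and eggshell proteins. The hypodermis, the skin that secretes the cuticle, has recently made the adult cuticle in the course of the last molt. Sperm are made only in the last larval stages of a hermaphrodite, before oocytes. The C. elegans X chromosome is known to be poor in genes of the germline.

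Abundance is given as TPM, a share of transcripts scaled for length: the count of a gene was divided by its exonic length, and the results were scaled to sum to 1000000 in each library. The libraries held between 16348586 and 22174508 counts, so that 1 count in a gene of 1 kb was worth between 0.0643 and 0.0776 TPM. On this scale the median of the 9530 genes with a mean count of at least 100 lay 0.12 from the gene's own mean in replicate 1 and -0.185 in replicate 3 (log2), so small differences in TPM between these replicates include that shift. At least 1 count was seen in 1 or more libraries for 20438 of 46748 listed genes, and 14159 genes averaged at least 1 TPM, among them 13028 of 19641 protein-coding genes. Ribosomal RNA took 5.58%, 10.04%, 8.69% and 6.12% of the counts in replicates 1 to 4 despite the poly(A) selection. No pair of libraries agreed within sampling noise, so each was counted as 1 sample. The pairwise Pearson correlation of log2 normalized counts, across 12576 genes, lay between 0.933, for replicates 1 and 3, and 0.980, for replicates 2 and 4.

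The defining markers of each part of the worm were found. The gut-restricted transcription factor elt-2 had 23.3, 14.3, 20.9 and 23.5 TPM in replicates 1 to 4, and the germline helicase glh-1 had 146, 168, 115 and 180 TPM. The adult-stage cuticle collagen col-19 had 486, 1038, 1335 and 912 TPM and was lowest in replicate 1. The body wall myosin unc-54 had 375, 303, 126 and 356 TPM. Markers near the edge of detection included rol-6, a cuticle collagen, with 0.800, 0.354, 1.89 and 0.774 TPM, the coelomocyte gene unc-122, with 1.04, 1.26, 0.212 and 1.65 TPM, and the early embryonic endoderm genes. Of the endoderm genes, end-1 had 2.91, 5.98, 3.42 and 4.25 TPM, end-3 had 1.45, 1.93, 0.800 and 1.13 TPM, and med-1 had 0, 5, 1 and 0 counts, where a count of 0 still allows up to 3.

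The most abundant RNAs were those of the translation machinery, mitochondria and yolk. The gene with the highest mean TPM was rrn-3.1, a ribosomal RNA gene on the plus strand of chromosome I (15064838 to 15068346, WBcel235, 1 exon of 3509 nt), with 22990, 41400, 30660 and 24800 TPM in replicates 1 to 4. Among protein-coding genes eef-1A.1, the elongation factor that brings charged tRNA to the ribosome, came first (chromosome III, 6970026 to 6972003, minus strand, 5 exonic segments), with 10340, 9055, 7259 and 9554 TPM, a mean of 9052 ± 1307 (SD, n = 4). The mitochondrial cytochrome c oxidase genes COX1, COX3 and COX2 averaged 5503, 4915 and 3911 TPM. The vitellogenin vit-2 (X, 5101032 to 5106173) had 5518, 4508, 2146 and 4575 TPM, and vit-6 (IV, 8261145 to 8266463) had 4077, 4329, 2145 and 4134 TPM. Both vitellogenins were thus lowest in replicate 3, below every other replicate.

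Of the 25 genes with the highest mean TPM, 13 encode cytosolic ribosomal proteins, led by rps-8 with a mean of 4266 TPM, rla-0 with 4083 TPM and rpl-10 with 3783 TPM. The rest of the 25 were 3 mitochondrial genes, 2 vitellogenins, 1 translation factor and 6 genes in no list. Beside rrn-3.1, those 6 held far-2, a fatty acid and retinol binding protein, with a mean of 3163 TPM, and ant-1.1, the ADP/ATP carrier of the mitochondrial inner membrane, with 3128 TPM. They also held the clone-named genes Y37E3.8, with 5215 TPM, and Y82E9BR.3, with 3271 TPM, and a gene known by its identifier only. This last gene, WBGene00004677, is annotated as a pseudogene on chromosome I (15060299 to 15061150), on the same strand as rrn-3.1 and close before it, and had 2513, 3905, 4201 and 3526 TPM. Exons of rpl-2, rpl-32 and Y82E9BR.3 overlap a gene on the opposite strand, whose reads cannot be told apart if counting ignored strand, and whether it did is not given in the sources used here. The same holds for act-4, mlc-2, him-3, tni-4, sbt-1, nlp-24 and F43H9.3 below. Across the 25, the ratio of the highest to the lowest replicate ranged between 1.14 and 2.21 in normalized counts.

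**Figure D1:**
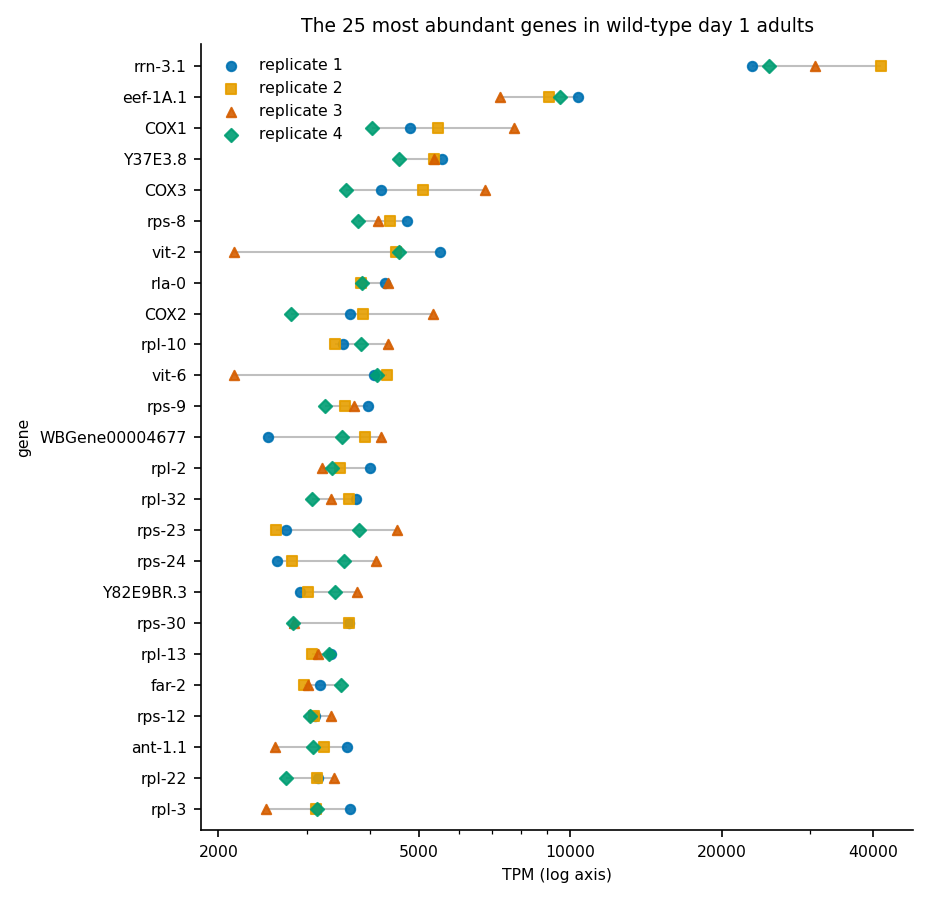
TPM of the 25 genes with the highest mean TPM (vertical axis) in each of the 4 wild-type replicates (points), on a log axis. rrn-3.1 lies at or above 22990 TPM in every replicate, vit-2 and vit-6 have replicate 3 far to the left of the others, and COX1, COX2 and COX3 have it on the right.

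The transcriptome was concentrated in few genes. Taking the mean TPM of each gene, 76 genes held 25% of all TPM, 455 genes held 50% and 4900 genes held 90%. The number needed for 50% was 506, 430, 374 and 484 in replicates 1 to 4, lowest in replicate 3 and highest in replicate 1. By the 10 most abundant genes the order differed, with 7.05%, 8.74%, 8.05% and 6.70% of TPM in replicates 1 to 4. The 10 most abundant genes held 7.49% of TPM and the 100 most abundant 29.0%. The 4 libraries shared 83 of their 100 most abundant genes, and 115 genes were in the first 100 of at least 1 library.

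The first 100 genes by mean TPM fell mostly into a few classes. Cytosolic ribosomal proteins were 61 of them, genes of the mitochondrial genome 7, cuticle collagens 5, translation factors 4 and vitellogenins 3. The gut list had 2 members, the cathepsins asp-1 and cpr-1. The oocyte list had cey-2, a cold-shock-domain RNA-binding protein, the body wall muscle list pat-10, a troponin C, and the small heat shock list sip-1. The remaining 15 were in no list. No member of the proteasome, glycolysis, histone, neuron or nuclear respiratory chain list was among the 100. By type, 97 of the 100 are protein coding, and the others are rrn-3.1, WBGene00004677 and tts-1, a long non-coding RNA with 2584, 1071, 1586 and 2079 TPM that was named after its values were seen. The first 100 were short, with a median exonic length of 735 nt against 1496 nt for the 9530 genes with a mean count of at least 100. Long RNAs such as those of vitellogenins weigh less in TPM than in counts: the 6 yolk genes held 1.03% of TPM and 3.66% of counts.

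Ribosomal proteins, the core of the protein synthesis machinery, were the class with the largest share among the 44 lists. Their 82 genes held 17.5%, 16.4%, 17.9% and 17.2% of TPM in replicates 1 to 4, a mean of 17.2% ± 0.634 (SD, n = 4), so that the share moved little between cultures. The median member had 2193 TPM. At the low end was rpl-42 with a mean of 0.664 TPM, the only member under 1 TPM. Translation factors added 2.46%, 2.25%, 1.99% and 2.37% of TPM over 40 genes, of which the first 3 were eef-1A.1, the translocase eef-2 with a mean of 2202 TPM, and iff-1, an eIF5A, with 1767 TPM.

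The 12 protein-coding genes of the mitochondrial genome, all subunits of the respiratory chain or ATP synthase, held 2.25%, 2.59%, 3.44% and 1.76% of TPM. Replicate 3 was highest and replicate 4 lowest, and the ratio between them was 1.96. COX1 showed this order gene by gene, with 4800, 5451, 7729 and 4034 TPM. The 65 nuclear genes of the respiratory chain, whose products work beside those subunits, held 1.84%, 1.85%, 2.07% and 1.94%, a range of 1.12-fold. Their most abundant members were atp-2 and atp-1, the ATP synthase beta and alpha subunits, with means of 1316 and 1010 TPM, and the cytochrome c gene cyc-2.1 with 1134 TPM. Smaller basal classes were the proteasome with 0.838% of TPM, actin and tubulin with 0.485%, glycolysis with 0.389% and histones with 0.251%. The histone genes with the highest TPM were the linker histone his-24 and the variants his-72 and his-74, with means of 712, 706 and 309 TPM. Of 72 histone genes, 56 had a count and 32 averaged at least 1 TPM. Because the libraries were poly(A)-selected, histone RNAs without a poly(A) tail would be under-represented in these values.

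The germline was represented by all of its programmes. The 32 genes of the oocyte list held 1.08%, 1.09%, 0.856% and 1.12% of TPM, and the 14 genes of the eggshell and vitelline layer list 0.609%, 0.636%, 0.527% and 0.668%. Germ granule genes, which act in small RNA pathways, held 0.178%, 0.166%, 0.108% and 0.184%, and meiosis genes 0.146%, 0.136%, 0.123% and 0.132%. In each of these 4 lists replicate 3 was the lowest library, by 1.31-fold, 1.27-fold, 1.71-fold and 1.18-fold below the highest. Together the 4 lists held 1.94% ± 0.222 of TPM (SD, n = 4) over 89 genes, and all 89 averaged at least 1 TPM.

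Among oocyte genes cey-2 was first with 2777, 2797, 2427 and 2711 TPM. The RNA helicase cgh-1, which protects stored maternal mRNA, had 1399, 1267, 720 and 1406 TPM, and cey-3 had 973, 1198, 1486 and 1092 TPM. So cey-3, from the same family as cey-2, was highest in replicate 3 where cgh-1 was lowest. The leading eggshell genes were perm-2 and perm-4 of the permeability barrier, with means of 1324 and 1234 TPM, and the chondroitin proteoglycan cpg-2, with 965 TPM. The leading germ granule genes were the Argonaute wago-1, the P granule scaffold pgl-1 and the Argonaute csr-1, with means of 274, 178 and 152.5 TPM. The meiotic axis genes him-3, htp-1 and htp-2 had means of 123, 103 and 89.1 TPM.

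Sperm genes were far lower. The 89 genes of the sperm list, for major sperm proteins and other sperm products, held 0.0505%, 0.0511%, 0.0634% and 0.0615% of TPM, and their median member had 2.90 TPM. The first in that list were spe-39, which also acts in vesicle traffic outside sperm, with a mean of 42.1 TPM, spe-48 with 34.7 TPM and ssp-37 with 26.0 TPM. The sperm-supplied embryonic factor spe-11 had 1.58, 2.65, 1.70 and 3.14 TPM. Genes first switched on in the embryo held 0.0159%, 0.0184%, 0.0282% and 0.0201% of TPM over 18 genes. This smaller sum comes from fewer genes, and their median member had 2.44 TPM, near that of the sperm list. The member with the highest TPM, sdz-27, had 80.2, 78.3, 152 and 85.0 TPM, and sdz-28 and pes-10 averaged 42.95 and 15.97 TPM. For all 3 of these genes replicate 3 was the highest library.

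Yolk and the other genes of the intestine held similar shares on average. The 6 vitellogenin genes held 1.13%, 1.24%, 0.618% and 1.14% of TPM, and vit-2, vit-6 and vit-5 made up 93.05% of that. The third of them, vit-5, had 1551, 2323, 1157 and 2020 TPM. Because vit-1 to vit-5 have long near-identical stretches and how multi-mapping reads were counted is not given in the sources used here, the split among them is uncertain. The other 29 gut genes held 0.781%, 1.12%, 1.103% and 1.004% of TPM, with replicate 1 lowest. The aspartyl protease asp-1 had 1996, 2685, 2053 and 2177 TPM, the cysteine protease cpr-1 1372, 1830, 1778 and 1721 TPM, and the acyl-CoA dehydrogenase acdh-1 781, 1235, 1483 and 1216 TPM. In all 3 the lowest value was that of replicate 1.

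Body wall muscle, from 23 genes, held 0.718%, 0.695%, 0.642% and 0.737% of TPM, a mean of 0.698% ± 0.0412 (SD, n = 4). The troponin C pat-10 had 1354, 1441, 1790 and 1385 TPM, the actin act-4 had 1338, 1188, 740 and 1186 TPM, and the myosin light chain mlc-2 had 887, 882, 1061 and 1071 TPM. In TPM the lowest replicate differs among those 3, and in normalized counts it is replicate 1 for pat-10 and mlc-2 and replicate 3 for act-4. Their exonic lengths are 768, 1802 and 654 nt. The list of pharyngeal muscle, the pump of the feeding organ, held 0.0286%, 0.0228%, 0.0154% and 0.0218% of TPM over 7 genes. Its leading genes were the troponin I tni-4, the troponin C tnc-2 and the myosin myo-1, with means of 76.8, 55.6 and 25.9 TPM.

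Cuticle collagens were the tissue class with the largest share of TPM, while yolk had the largest share of counts, with 3.66% against 2.003% for collagens. Their 178 genes held 1.98%, 3.02%, 3.34% and 2.39% of TPM, a mean of 2.68% ± 0.614 (SD, n = 4), with replicate 1 lowest and replicate 3 highest. This share came from a minority of the family, since 9 genes averaged over 1000 TPM while 44 of those with a count averaged under 1 TPM. The first of them, col-122 (IV, 9563360 to 9564471), had 1820, 2777, 2980 and 2473 TPM. Next were col-140 (V, 5835853 to 5836841), with 1563, 2756, 3060 and 2025 TPM, and col-119 (IV, 8978823 to 8979812), with 1785, 2577, 2447 and 2287 TPM. All 3 were at their lowest in replicate 1.

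Genes of the molt and of the apical matrix that precedes a new cuticle held a much smaller share, and ran the other way. Their 22 genes held 0.103%, 0.0648%, 0.0417% and 0.0748% of TPM, with replicate 1 highest and replicate 3 lowest. The apical matrix proteins noah-2 and noah-1 had means of 168 and 130 TPM, and mlt-8 had 89.98 TPM. Cuticlins, the insoluble non-collagen proteins of the cuticle, held 0.0445%, 0.0258%, 0.0137% and 0.0252% of TPM, also with replicate 1 highest and replicate 3 lowest.

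The neuron and coelomocyte lists held little of the TPM. They name only some genes, so their shares do not measure how much RNA these cells gave. Neuron genes held 0.0801%, 0.0627%, 0.0492% and 0.0687% of TPM, led by the synaptobrevin snb-1 with 277, 261, 228 and 274 TPM. Neuropeptide genes, of which some are made outside neurons, held 0.211%, 0.186%, 0.205% and 0.187%. The first of that list was nlp-40, a peptide of the intestine, with a mean of 272 TPM. The 3 coelomocyte genes together held between 0.000939% and 0.00138% of TPM, led by cup-4 with a mean of 7.43 TPM.

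**Figure D2:**
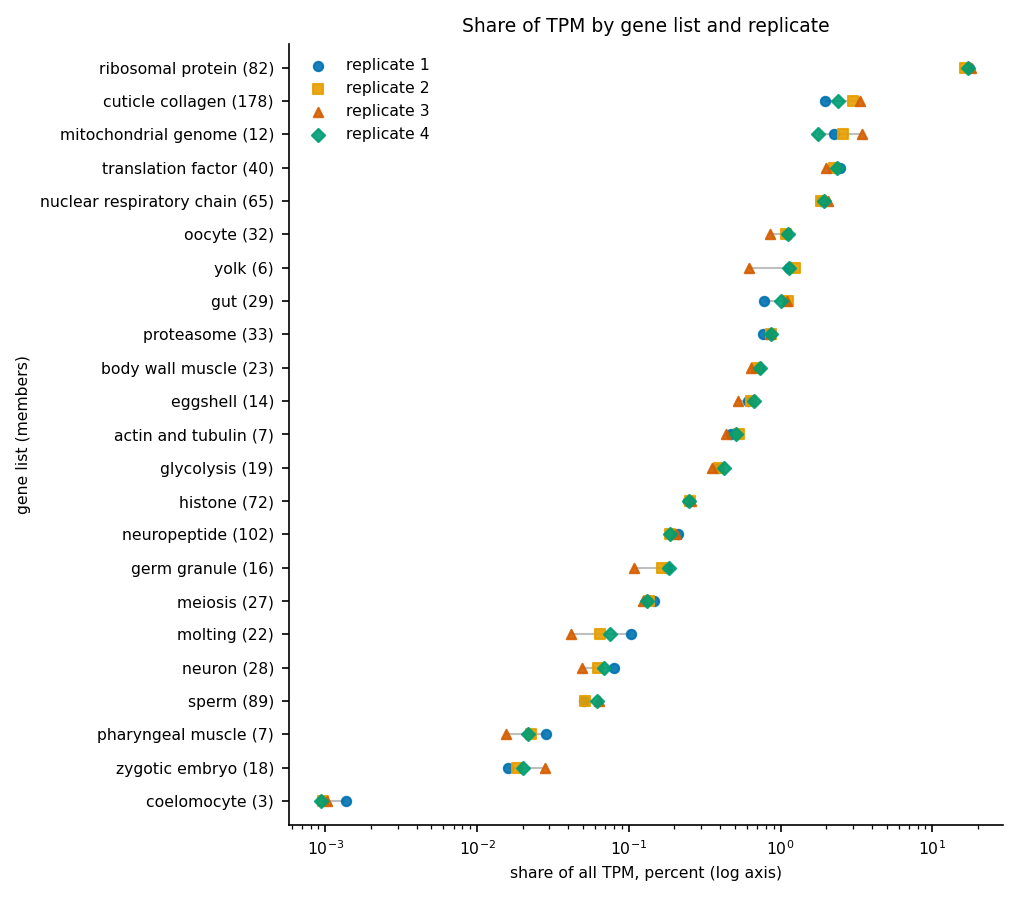
Share of all TPM held by each tissue or basal gene list (vertical axis, with its number of members) in each of the 4 wild-type replicates (points), in percent on a log axis. Ribosomal proteins stand near 17%, cuticle collagens between 1.98% and 3.34%, and coelomocyte genes near 0.001%. Among the lists drawn, the ratio of the highest to the lowest replicate is largest for molting, at 2.47, and 2.01 for yolk.

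The chromosomes differed in how much of the RNA they gave. Chromosome X carries 13.6% of protein-coding genes and gave 8.01%, 7.76%, 7.61% and 8.11% of TPM in replicates 1 to 4. Chromosome V carries 25.1% of protein-coding genes and gave 14.2% of TPM on average. Chromosomes I and III, with 14.4% and 13.2% of protein-coding genes, gave 24.2% and 19.9%, chromosome I including the ribosomal RNA genes. Of protein-coding genes, 79.9% on III and 50.8% on V averaged at least 1 TPM, against 72.4% on X. The protein-coding genes of X at or above 1 TPM had a median of 11.4 TPM, against 35.4 TPM on III. Of the 89 genes of the oocyte, eggshell, germ granule and meiosis lists 3 are on X, while 5 of the 6 vitellogenins are. Of the first 100 genes by TPM, 4 are on X and 29 on I.

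Variation among the 4 cultures was described on counts normalized by TMM, which scales libraries to their common genes, for the 9530 genes with a mean count of at least 100. A gene is called variable where its highest replicate was at least 2-fold its lowest. Of the 9530 genes 2005 were variable (21.0%), and the median gene differed 1.53-fold between its highest and lowest replicate. The share depended on abundance, with 44.1% of tested genes at 1 to 10 TPM variable, against 17.6% at 10 to 100 TPM and 15.1% over 1000 TPM. Replicate 3 was the highest library for 1017 of the variable genes (10.7% of all tested) and replicate 1 for 762 (8.00%), while replicate 2 was for 125 (1.31%) and replicate 4 for 101 (1.06%). The first principal component held 73.2% of the variance, with replicate 3 at 44.9 and replicate 1 at -33.2, while replicates 2 and 4 lay between at -2.33 and -9.41. Between replicates 1 and 3, 17.2% of genes differed at least 2-fold, and between replicates 2 and 4, 1.75% did. The count of 2005 variable genes rested on replicates 1 and 3: it was 572 without replicate 3 and 1171 without replicate 1.

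Gene length moved with this variation. The genes were split by length into 5 bins of nearly equal number. In the bin of the shortest genes (54 to 886 nt) the median log2 deviation from the mean of the 4 libraries was 0.40 in replicate 3 and -0.22 in replicate 1. In the bin of the longest genes (2505 to 56600 nt) it was -0.44 in replicate 3 and 0.19 in replicate 1. Replicates 2 and 4 stayed between -0.08 and 0.16 in every bin. The correlation of the deviation with log2 length, computed over genes and so not over independent samples, was -0.63 in replicate 3 and 0.43, 0.26 and 0.36 in replicates 1, 2 and 4. With each library's trend on length removed, 1259 genes were variable (13.2%). Counts of variable genes in the classes below are therefore given also with the trend removed, an alternative chosen after seeing the data. Removing it also takes away part of any difference shared by a class of uniform length, such as ribosomal proteins, with a median of 631 nt.

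**Figure D3:**
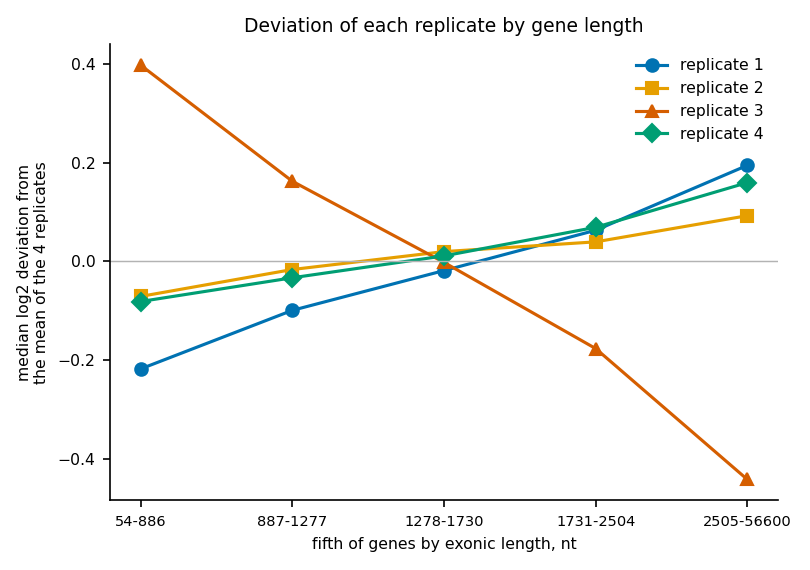
Median log2 deviation of each replicate from the mean of the 4 replicates (vertical axis) in 5 bins of the 9530 tested genes by exonic length (horizontal axis, nt). The line of replicate 3 runs from 0.40 in the bin of the shortest genes to -0.44 in that of the longest, and the lines of the other replicates slope the opposite way.

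Cuticle genes were among the more variable ones, and the lists differed in direction. Of the 62 cuticle collagens with enough counts, 39 were variable, or 62.9% against 21.0% of all genes, and 34 were with the length trend removed. Replicate 3 was highest and replicate 1 lowest for 31 of the 62, against 20.2% of all genes. In normalized counts, replicate 1 was lowest for 36 of 62, against 28.6% of all genes, and replicate 3 highest for 40, against 36.1%. In TPM these counts were 33, against 17.5% of all genes, and 31, against 24.8%. The most abundant collagens went this way: of the first 20 by TPM, 17 were highest in replicate 3 and 17 lowest in replicate 1. For col-19 the highest replicate was 3.32-fold the lowest, and 2.68-fold with the length trend removed. Without replicate 3, 21 collagens were variable.

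Replicate 1 was highest for 13 of the 62 collagens, or 21.0%, a smaller share than the 27.6% of all genes. Their 3 most abundant members, named after their values were seen, were dpy-17, sqt-3 and dpy-14, which set body shape and are known to be made around molts. The TPM of dpy-17 was 1071, 607, 400 and 690, that of sqt-3 was 965, 527, 309 and 594, and that of dpy-14 was 826, 493, 274 and 535. These 3 thus stood, from high to low, in the order of replicates 1, 4, 2 and 3, the reverse of col-19, and all 4 genes have exonic lengths between 1017 and 1167 nt. The furrow collagen dpy-7 varied less, with 92.6, 71.3, 63.4 and 80.8 TPM.

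Molting genes and cuticlins were mostly highest in replicate 1. Of 20 molting genes with enough counts 14 were variable, or 70.0%, and replicate 1 was highest and replicate 3 lowest for 14, against 21.2% of all genes. The number of variable molting genes fell to 5 with the length trend removed, to 7 without replicate 1 and to 2 without replicate 3. Replicate 1 was highest for 15 of the 20 as normalized and for 14 with the trend removed. Over all 9530 genes it was highest for 2626 and 2748. The genes of this list are long, with a median of 2646 nt. For noah-1 the highest replicate was 2.27-fold the lowest and for noah-2 2.06-fold, and 1.43-fold and 1.54-fold with the trend removed. Of 14 cuticlins 11 were variable, or 78.6%, with or without the trend. Replicate 1 was highest and replicate 3 lowest for 11 of the 14 cuticlins, against 21.2% of all genes. The TPM of cut-2 was 167, 87.6, 27.5 and 71.9, and that of cut-3 was 78.4, 39.6, 7.80 and 25.9. Exons of both overlap a gene on the opposite strand.

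Hedgehog-related proteins, which in nematodes act mainly in the skin and its cuticle, had 10 of 13 variable members, or 76.9%, with or without the trend. Replicate 1 was highest for 8 of the 13, against 27.6% of all genes, and replicate 3 for 2, against 36.1%. Of the members with the highest TPM, wrt-10 had 86.7, 58.1, 53.7 and 79.7 TPM, while grd-5 had 25.1, 50.3, 89.5 and 31.6 TPM. Of 22 patched-related genes 10 were variable, or 45.5%, and 7 with the trend removed. Replicate 3 was lowest for 16 of the 22, against 42.3% of all genes. The patched-related ptc-1, which acts in germline cytokinesis, had 160, 157, 76.9 and 171 TPM. Its spread of 1.93-fold was 1.19-fold with the trend removed.

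**Figure D4:**
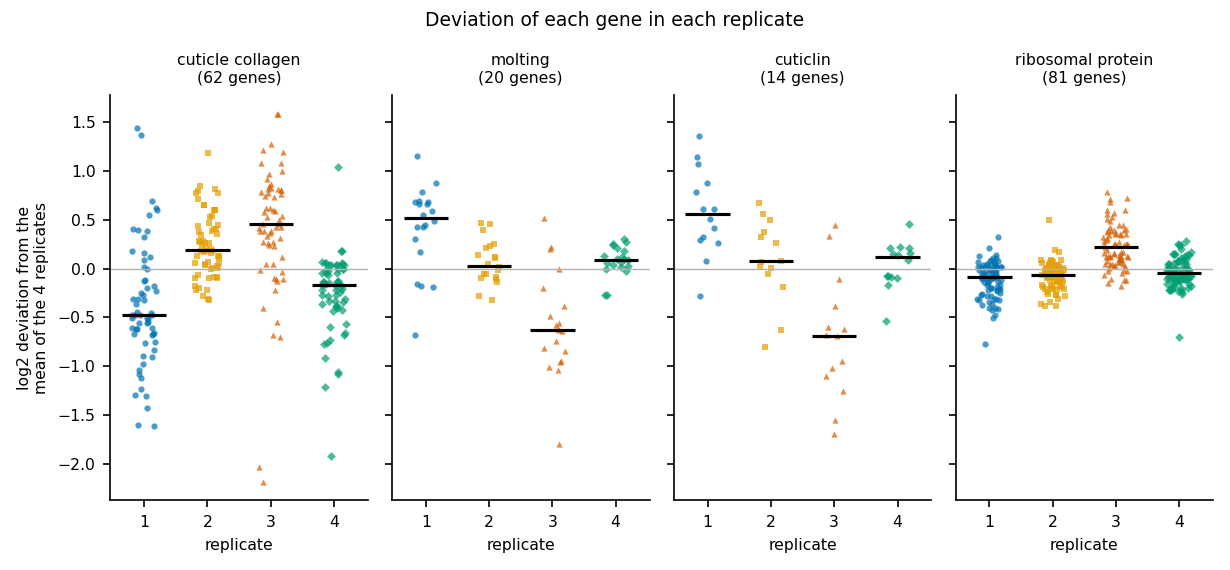
Log2 deviation of each gene from its mean over the 4 wild-type replicates (vertical axis, normalized counts) in each replicate (horizontal axis), for cuticle collagens, molting genes, cuticlins and ribosomal proteins; points are genes and bars are medians. The median of collagens is -0.48 in replicate 1 and 0.46 in replicate 3, that of molting genes 0.52 and -0.62, that of cuticlins 0.56 and -0.69, and that of ribosomal proteins -0.09 and 0.22.

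Vitellogenins did not vary alike. Of the 6 genes 4 were variable. The abundant vit-2 and vit-6 were lowest in replicate 3, by 2.13-fold and 1.82-fold, and these spreads were 1.21-fold and 1.29-fold with the length trend removed, for RNAs of 4948 and 5080 nt. The spread of vit-5, with 4872 nt and also lowest in replicate 3 as normalized, was 1.81-fold with and without the trend. The minor vit-1, vit-3 and vit-4 were lowest in replicate 1 instead. The TPM of vit-1 was 27.2, 448, 238 and 158, that of vit-3 was 102, 479, 276 and 323, and that of vit-4 was 42.9, 338, 218 and 222. For vit-1 this was a spread of 17.98-fold, and 20.05-fold with the trend removed. Whether reads shared among the near-identical copies entered these differences was not tested.

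In genes of intestinal digestion and defence replicate 1 was the lowest library more often than in all genes, where it was for 28.6%. It was lowest for 7 of 8 lysozymes, 8 of 16 saposin-like genes, 15 of 28 gut genes other than yolk and 20 of 45 C-type lectins. The gene lys-4 is in both the lysozyme and the gut list. In the same order, the median log2 deviation in replicate 1 was -0.82, -0.31, -0.18 and -0.13. With the length trend removed it was -0.63, -0.06, -0.19 and -0.03. The lectins were split, since replicate 1 was also highest for 31.1% of them, against 27.6% of all genes. It was highest for 12.5% of lysozymes, 12.5% of saposin-like genes and 14.3% of gut genes. Of the lysozymes 6 were variable, against 21.0% of all genes, and 5 with the trend removed. The bacterial-wall-degrading lys-4 had 634, 1079, 1610 and 996 TPM and ilys-5 had 76.03, 591.6, 945.8 and 392.1 TPM, while lys-7 had 357, 430, 412 and 479 TPM. Of 16 saposin-like genes, which encode membrane-disrupting peptides, 11 were variable, and 6 with the trend removed. The first of them, spp-5, had 1187, 1298, 1659 and 1067 TPM. Of 28 gut genes other than yolk 12 were variable, or 42.9%, with or without the trend. Of 45 C-type lectins 18 were variable, or 40.0%, and 14 with the trend removed. The first of them, clec-63, had 920, 823, 671 and 929 TPM.

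All 11 mitochondrial genes with enough counts were variable, and 7 with the length trend removed. Replicate 3 was highest for 9 of them, against 36.1% of all genes, and replicate 4 was lowest for 10, against 13.6%. The exceptions were ND3 and ND6, named after their values were seen, where replicate 2 was highest. The TPM of ND3 was 1902, 2360, 1247 and 640, and that of ND6 was 176, 255, 93.9 and 51.1. Of 63 nuclear respiratory chain genes 8 were variable, or 12.7%, and none with the trend removed.

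Of the 7 pharyngeal muscle genes 5 were variable, and 3 with the trend removed. The TPM of myo-1 was 39.9, 25.3, 9.51 and 28.9, and that of myo-2, also a pharyngeal myosin, was 36.6, 25.8, 9.08 and 26.5. Their spreads of 3.47-fold and 3.33-fold were 1.79-fold and 1.73-fold with the trend removed, for RNAs of 6504 and 6327 nt. Of 23 body wall muscle genes 6 were variable, or 26.1%, and 1 with the trend removed. For unc-54, with 6264 nt, the spread of 2.48-fold became 1.36-fold. Of 18 neuron genes 9 were variable, and 5 with the trend removed. Replicate 3 was lowest for 14 of the 18, against 42.3% of all genes. The neuropeptide processing genes sbt-1 and egl-21 had 108, 65.4, 36.6 and 73.0 TPM and 73.0, 35.4, 27.2 and 51.1 TPM. Neuropeptide genes were the opposite case, short and with more variable members once the trend was removed, at 26 of 44 against 14 as normalized.

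Several lists of basal cell function and the germline lists had fewer variable members than all genes. Of 81 ribosomal protein genes 5 were variable, or 6.17%, and 2 with the trend removed. Of 39 translation factors 1 was variable and of 33 proteasome genes 2, and none of either with the trend removed. Basal classes were not all steady, since 6 of 16 histone genes, or 37.5%, were variable with or without the trend, beside the mitochondrial genes above. None of 18 glycolysis, 14 eggshell or 7 actin and tubulin genes was variable. Ribosomal proteins were highest in replicate 3 for 63 of 81 genes as normalized, against 36.1% of all genes. With the length trend removed replicate 1 was highest for 49 and replicate 3 for 4, against 2748 and 3132 of all 9530 genes. The direction of this class thus turned with that step. In TPM replicate 3 was highest for 38, or 46.9% against 24.8% of all genes. Replicate 1 was highest in TPM for 31, or 38.3%, near its 41.4% of all genes. The variable ribosomal proteins numbered 2 without replicate 1 and 1 without replicate 3. Of the 89 germline genes outside the sperm list 9 were variable, or 10.1%, and 1 with the trend removed. Replicate 3 was lowest for 65 of the 89, against 42.3% of all genes. These genes are longer than most, with a median of 1998 nt. Their median log2 deviation in replicate 3 was -0.30 as normalized and -0.11 with the length trend removed.

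**Figure D5:**
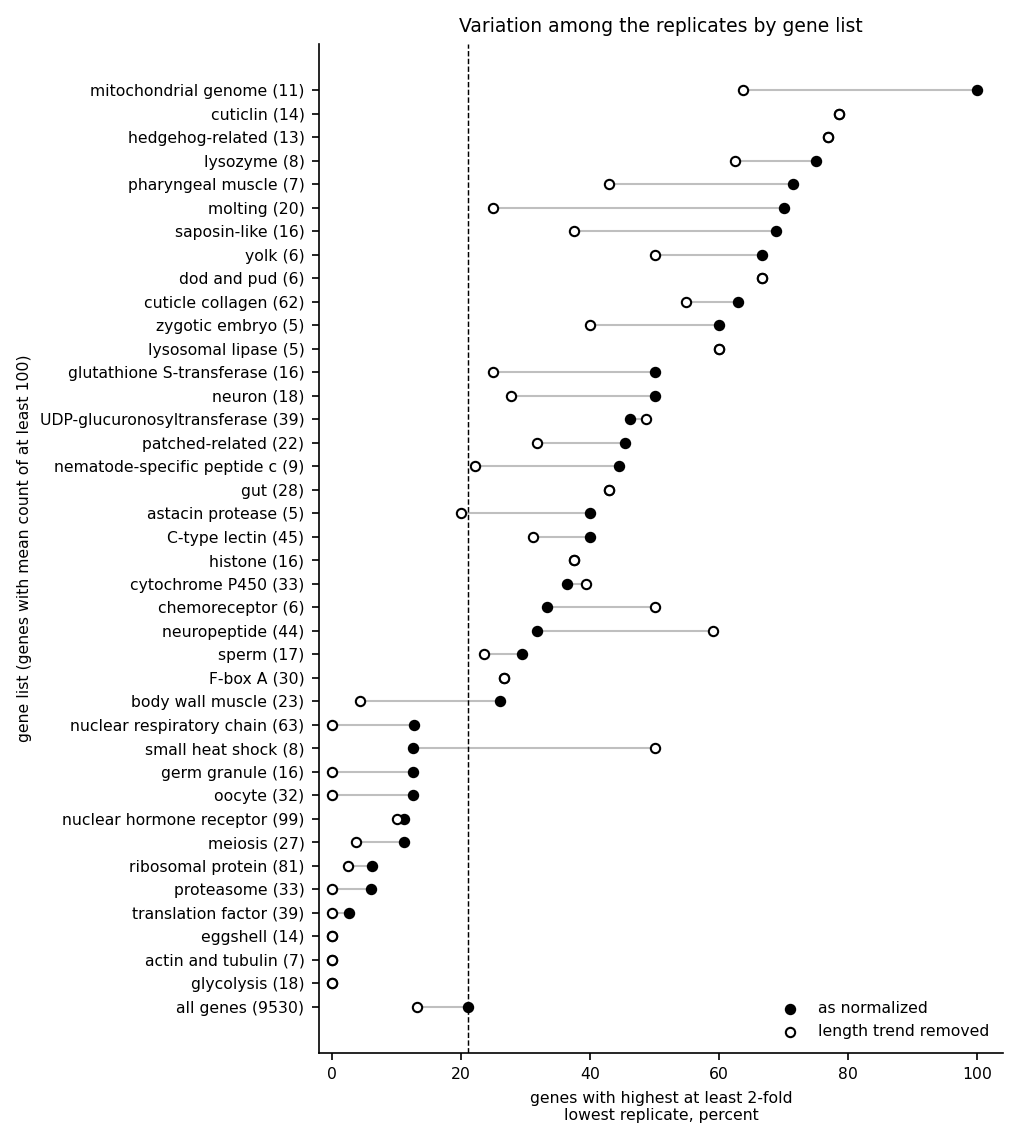
Percent of the tested genes of each list whose highest replicate was at least 2-fold the lowest (horizontal axis), for lists with at least 5 tested genes (vertical axis, with the number tested); filled points are as normalized, open points have the length trend removed, and the dashed line is the 21.0% of all genes. Mitochondrial genome, cuticlin and hedgehog-related genes are at the top, and glycolysis, eggshell and cytoskeleton genes are at 0, while the open points of molting and body wall muscle lie far to the left of the filled ones.

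The 12 genes with the largest spread, among those averaging at least 10 TPM, had a ratio of highest to lowest replicate of at least 10.5-fold, and 11 of the 12 were lowest in replicate 1. The largest was that of F46F2.3, a gene named by clone only, with 4.48, 102, 162 and 15.7 TPM. The folate transporter gene folt-2 had 9.43, 209, 189 and 58.9 TPM. T22F3.11 was the exception, with 60.2, 8.59, 1.49 and 16.1 TPM, highest in replicate 1. The saposin-like spp-23 had 8.67, 110, 184 and 38.4 TPM, the peptide gene nlp-24 had 13.4, 64.2, 217 and 62.3 TPM, and the infection response gene irg-8 had 10.7, 101, 92.9 and 69.8 TPM. With vit-1 and ilys-5 given above, the other 4 were D1086.3, F28H7.3, R09H10.7 and Y105C5B.5, with means of 11.5, 59.8, 31.2 and 152 TPM. In each of these 4 replicate 1 was lowest and replicate 3 highest.

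The 5 genes with the smallest spread differed by at most 1.024-fold in normalized counts, and by up to 1.37-fold, for rps-4, with the length trend removed. They were F43H9.3, toe-4, snfc-5, a subunit of the SWI/SNF chromatin remodelling complex, pssy-2, a phosphatidylserine synthase, and rps-4, a small ribosomal subunit protein. Their mean levels were 20.8, 41.9, 108, 41.1 and 2462 TPM.

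The genes used as tools or subjects in the study were all detected in wild type. The CREB gene crh-1 (III, 11657738 to 11693837, plus strand, 11 exonic segments) had 29.3, 34.1, 27.6 and 32.9 TPM, a mean of 31.0 ± 3.02 (SD, n = 4). The counts themselves do not separate its linear from its circular RNAs, and the methods describe poly(A) selection for the analysis of linear transcripts. The RNA-editing factor adr-1 had 71.0, 58.6, 38.0 and 64.4 TPM, and its spread of 1.55-fold was 1.04-fold with the length trend removed. The RT-qPCR references cdc-42 and act-1 had 283, 265, 171 and 244 TPM and 202, 220, 174 and 228 TPM, both lowest in replicate 3 in TPM, while in normalized counts act-1 was lowest in replicate 1. Of the genes whose promoters drove transgenes, the germline gene pie-1 had 78.72, 74.42, 49.69 and 76.02 TPM and the neuronal rab-3 had 11.2, 8.92, 5.27 and 9.58 TPM. Both overlap a gene on the opposite strand.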

How the data were processed

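Poly(A) RNA-Seq libraries of whole day 1 adult worms were sequenced for 3 genotypes with 4 libraries each, and the 4 wild-type libraries were used here. The authors deposited raw whole-number counts per gene, with the exonic length of each gene (another column of the same file, in nt), made with bcl2fastq 2.19, STAR 2.7.5a and featureCounts 1.5.0 on WBcel235. The counting call they state joins exons by gene identifier and lists no option for strand or multi-mapping reads, but whether the list is complete is unknown. Counting by strand, the annotation release and the treatment of reads mapping to several genes are not given in the sources used here. Their comparison tables (DESeq2 1.26.0 fold changes and p-values) were not used, and 0 columns of other samples were left unmapped.

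TPM was computed from counts and length. Libraries were scaled by TMM (edgeR 4.0.16, R 4.3.3) with 0.5 added before logs, and genes with a mean count of at least 100 were examined for a 2-fold range. The length trend was a lowess fit of each library's deviation on log2 length (fraction 0.3, statsmodels 0.14.6, Python 3.11.15). Alternatives were DESeq2 1.42.0 size factors, TPM, CPM without length scaling, lengths less 150 nt, other minima and folds, mitochondrial or ribosomal RNA genes left out, and each replicate left out. The scripts were tested on simulated data.

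The genes named were the 25 with the highest mean TPM, the 3 highest members of each list described, the 12 largest and 5 smallest standard deviations of log2 normalized counts among genes averaging at least 10 TPM, and genes the study names. Other genes were named after their values were seen. The members and lists were chosen with earlier results of these data known, and 2 name patterns that define lists were corrected after a first run. Mitochondrial genes without a name in the files were named by position from RefSeq. The 4 replicates have no order and no group to be tested against. Depth of 16348586 to 22174508 counts limits the precision of genes near 1 TPM, and reads without molecular identifiers are not independent molecules.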

Additional observations from a re-analysis of the deposited data

Results flagged for a closer look

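For 12 of the values examined, over 185 genes and 45 lists, 1 replicate stood apart from the other 3 by more than Dixon's 95% critical value for 4 samples. Chance flags about 1 in 20 such groups, or 11.5 of those examined, so 12 is about the number chance gives. In 11 of the 12 the replicate was replicate 3, the library with the strongest trend on length. Causes were not tested.

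Replicate 3 was lowest in 8 of the values. The share of TPM of the oocyte list was 0.856% there and 1.08% to 1.12% in the others. Among its genes, oma-1, which acts in oocyte maturation, had 83.96 TPM against 144.9 to 147.4, and pie-1, which represses transcription in the germline, had 49.69 TPM against 74.42 to 78.72. The yolk gene vit-6 had 2145 TPM against 4077 to 4329. The Argonaute csr-1 had 102.2 TPM against 165.5 to 174.5, and ptc-1 had 76.93 TPM against 157.2 to 171.1. The ATP synthase genes atp-2 and atp-1 had 1024 TPM against 1383 to 1432 and 737.2 TPM against 1084 to 1127.

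Replicate 3 was highest in 3 others. The share of caenacins and fungus-induced peptides was 0.0530% there and 0.0400% to 0.0415% in the others. The embryonic gene sdz-27 had 152.3 TPM against 78.26 to 84.98, and the eIF5A gene iff-1 had 2200 TPM against 1574 to 1654. The last value was the share of the pals family, lowest in replicate 4 with 0.0106%, against 0.0114% to 0.0115%.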

How the results depend on the processing

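No paired analysis was possible because only 1 group was used. The direction of the ribosomal proteins turned with the length trend removed. As normalized replicate 3 was highest for 63 of 81, against 36.1% of all genes. With the trend removed replicate 1 was highest for 49 and replicate 3 for 4, against 2748 and 3132 of all 9530 genes. Without length scaling (CPM) the shares of ribosomal proteins, collagens, the oocyte list, body wall muscle and yolk became 8.43%, 2.003%, 1.18%, 0.866% and 3.66%, by construction, since long RNAs then weigh more, so that yolk and not collagens had the largest share among tissue lists. With lengths less 150 nt the ribosomal protein share was 19.1%. Leaving out 1 replicate moved no share by more than its SD, but with 4 values it could not, so that measure tells nothing. Across these omissions the share was 0.964% to 1.17% for yolk, 2.46% to 2.92% for collagens and 2.195% to 2.76% for the mitochondrial genome. The number of genes that hold 50% of TPM lay between 403 and 621 over all alternatives. The 2005 variable genes became 5347 at a mean count of at least 10, 543 at 3-fold and 1259 with the length trend removed, and 572 to 1844 with 1 replicate left out. With DESeq2 size factors there were 2015. Variable collagens numbered 105 at a mean count of at least 10, 20 at 3-fold and 21 to 38 with 1 replicate left out. Variable molting genes numbered 4 at 3-fold, 5 with the length trend removed and 2 to 14 with 1 replicate left out. Variable ribosomal proteins numbered 2 in TPM, 0 at 3-fold, 2 with the length trend removed and 1 to 5 with 1 replicate left out. Of 185 named genes, 128 moved by more than their SD without length scaling and 27 with lengths less 150 nt. The length trend removal and the ribosomal RNA setting were chosen after seeing the data. Which cause underlies the length trend of replicate 3 was not tested.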

Other observations

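Large gene families outside the main classes were detected to very different degrees. Of 1308 chemoreceptor genes, 579 had a count in at least 1 library and 27 averaged at least 1 TPM. Of 39 insulin-like peptide genes 36 had a count and 27 averaged at least 1 TPM, although together they held 0.0143% of TPM. Of 269 nuclear hormone receptors 249 had a count and 172 averaged at least 1 TPM, of 240 C-type lectins 194 and 95, and of 170 F-box A genes 153 and 84.

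Detoxification families were low. The 67 UDP-glucuronosyltransferases, 74 cytochromes P450 and 49 glutathione S-transferases held 0.0746%, 0.0746% and 0.100% of TPM. Of those with enough counts, 18 of 39, 12 of 33 and 8 of 16 were variable, and 19, 13 and 4 with the length trend removed. Over all genes 21.0% were variable and 13.2% with the trend removed. As normalized 44.1% of tested genes at 1 to 10 TPM were variable, against 17.6% at 10 to 100 TPM. The medians of these families over all members lie at 1 to 10 TPM. The variable counts cover only members with a mean count of at least 100, and their abundances were not matched to those levels. Of nuclear hormone receptors 11 of 99 were variable, and 10 with the trend removed.

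The share of variable genes was 26.2% on X, 25.5% on V, 15.95% on I and 16.9% on III. By abundance, 146 genes over 1000 TPM held 34.7% of TPM, and 6279 genes under 1 TPM held 0.215%.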
